A study of Mus musculus with 4 samples.

Results

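Zfp574, the zinc-finger protein depleted in this experiment, was examined together with 9 other regulators of CpG-rich housekeeping promoters: Thap11, Hcfc1, Zfp143, Nrf1, Yy1, Gabpa, Nfya, Nfyb and Sp1. The members were picked by gene name for their known roles, and all 10 were found among the 12486 genes of the count table and passed the filter on low counts that 11853 genes passed. PRO-seq extends engaged RNA polymerase in isolated nuclei with labeled nucleotides and sequences the 3′ ends of the nascent RNA, so each value is polymerase on a gene rather than the amount of its mRNA or protein.

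Every library came from mouse embryonic stem (mES) cells of genotype AID-Zfp574, in which an auxin-inducible degron (AID) was fused to the N terminus of endogenous Zfp574 in a clonal parental line that expresses the plant E3 ligase adaptor OsTir1 from an EF1a promoter. The 2 control libraries (0 h) came from such cells without auxin, and the 2 depletion libraries from such cells after 6 h in 500 µM of the auxin indole-3-acetic acid (IAA). Controls therefore carry the tag and OsTir1 too, and no auxin-treated cells without the tag were analysed here, so that loss of the protein and exposure to auxin cannot be told apart. Total counts ran from 3298864 to 3616429 in the controls and from 5670904 to 6045216 after depletion, and intervals based on counts cover counting error only. The labels number the libraries as replicates, which the paper describes as biological. With 2 per condition, a p-value measures the spread between these samples alone. Of 10 embryonic stem cell markers, 9 were counted, with summed levels between 4150 and 4280 CPM (counts scaled to a common library size) in the 4 libraries. By contrast, the summed level of fibroblast markers (1 of 7 counted, Thy1) was between 0.504 and 2.18 CPM. That of primitive endoderm markers (3 of 6 counted) was between 12.6 and 15.3 CPM. For trophoblast markers (3 of 5 counted) it was between 37.3 and 46.8 CPM. Markers not counted were absent from the count table. The paper describes a minimum expression level for genes in its differential analysis, so weakly expressed genes may have been left out.

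Housekeeping genes are mostly driven by CpG-island promoters, which lack a TATA box and are read by a small group of widely expressed factors. Thap11 (also called Ronin) carries a THAP-type zinc finger and recruits Hcfc1, a large cofactor without a DNA-binding domain of its own that bridges factors to histone-modifying complexes, and Zfp143 is a C2H2 zinc-finger protein that reads an overlapping sequence. Nrf1 binds a GC-rich palindrome found at genes for mitochondrial and other basic functions, Yy1 a sequence near the start of many ribosomal and mitochondrial genes, Gabpa the GGAA core shared by the ETS family, Nfya and Nfyb the CCAAT box as subunits of NF-Y, and Sp1 the GC box. Several of these factors are needed for the survival or self-renewal of embryonic stem cells.

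To show which of these sequences the members' own promoters hold, the 120 bases before the RefSeq start (GRCm38.p6, the build also called mm10) are given for 5 members, chosen to place the ETS, Zfp143, Yy1, NF-Y and Sp1 sequences. Each runs 5′ to 3′ on the strand of the gene, with matches in capitals and the base at the start counted as position 0, and at most 20 of the bases shown (Gabpa) lie in an exon of the gene in GENCODE. The stretches of Zfp143, Gabpa and Sp1 lie downstream of the GENCODE start, inside the annotated gene, while those of Thap11 and Hcfc1 lie upstream of it.
Thap11 (chr8:105854983-105855102, plus strand): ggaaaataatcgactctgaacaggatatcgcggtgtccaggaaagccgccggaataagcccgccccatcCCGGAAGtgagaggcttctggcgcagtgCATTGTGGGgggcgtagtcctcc
Hcfc1 (chrX:73966358-73966477, minus strand): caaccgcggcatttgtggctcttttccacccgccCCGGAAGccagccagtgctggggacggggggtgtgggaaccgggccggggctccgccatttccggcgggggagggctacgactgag
Zfp143 (chr7:110061582-110061701, plus strand): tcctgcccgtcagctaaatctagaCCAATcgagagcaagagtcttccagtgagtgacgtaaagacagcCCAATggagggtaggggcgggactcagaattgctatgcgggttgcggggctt
Gabpa (chr16:84835004-84835123, plus strand): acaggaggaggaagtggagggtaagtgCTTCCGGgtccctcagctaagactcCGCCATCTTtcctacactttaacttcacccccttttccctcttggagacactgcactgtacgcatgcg
Sp1 (chr15:102406196-102406315, plus strand): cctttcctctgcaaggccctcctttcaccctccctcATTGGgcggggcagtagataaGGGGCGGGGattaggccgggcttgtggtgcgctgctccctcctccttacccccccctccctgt

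A window of 250 bases before to 50 bases after the start was searched on both strands for 7 sequences, in 1 window per gene for the 9 members listed in the RefSeq table (Zfp574 is not among them). The ETS sequence CCGGAAG was present in 3 of the 9 windows (Thap11, Hcfc1 and Gabpa). With 1 window per gene, as for the members, it was in 19.3% of 9288 tested genes, and in 8.86% of all 32851 windows. The Sp1 sequence GGGGCGGGG was present in 3 (Nfya, Nfyb and Sp1 itself), against 22.9% of tested genes and 11.4% of all windows. Gabpa and Sp1 thus each held the sequence of their own product.

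The Yy1 sequence AANATGGCG was found in 2 windows, Hcfc1 and Gabpa, against 5.70% of tested genes and 2.38% of all windows, and Hcfc1 held it on both sides of its start, at positions -168 to -160 and 24 to 32. The Nrf1 core GCGCANGCG was found in 2 (Thap11 and Nfya), against 14.6% of tested genes and 6.25% of all windows, and CCAAT in 2 (Zfp143 and Sp1), against 39.0% and 37.4%. The Zfp143 core CCCANNATG was found in 1, that of Thap11 at positions -23 to -15, against 5.54% of tested genes and 5.01% of all windows. The sequence ACTACAATT, the core of the one that Thap11 and Zfp143 share, was in 0 of the 9 windows and in 0.797% of tested genes and 0.393% of all windows. The windows of Nrf1 and Yy1 held none of the 7, although they were the richest in CpG among the members, with 43 and 42 CpG dinucleotides against a median of 21 in the windows of 9288 tested genes. The Yy1 window began at chr12:108793047, downstream of the GENCODE start of Yy1 at 108792973. All 120 bases before its RefSeq start lay in Yy1 exon, so sequence upstream of the GENCODE start was not searched for Yy1. For Nfya, 86 of the 120 bases before the RefSeq start lay in its own exon. Windows at other RefSeq starts of a gene were not counted. Such windows held CCAAT for Nrf1, and the Yy1 sequence and CCAAT for Nfya. The finds in all windows are matches of letters, and binding was not measured in these data.

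The first question was how strongly each factor is transcribed in these cells. In the control libraries, all 10 members lay above the median of all tested genes, 1.52 CPM per kb of annotated gene (GENCODE M21). They ran from the 68.6th percentile (Zfp574) to the 96.6th (Hcfc1). These percentiles are among genes that passed the filter on low counts, not among all annotated genes. Hcfc1 was far above the rest, at 19.3 ± 0.0917 CPM per kb (SD, n = 2), which was 2.53 times the level of Yy1 at 7.60 ± 0.0557 CPM per kb. Nrf1 followed at 5.64 ± 0.00386 CPM per kb.

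Nfya, which encodes the DNA-contacting subunit of NF-Y, came next at 5.23 ± 0.101 CPM per kb (SD, n = 2), and its histone-fold partner Nfyb lay close to it at 4.95 ± 0.127 CPM per kb. Zfp143 stood at 4.67 ± 0.0220, Sp1 at 4.40 ± 0.0613 and Gabpa at 4.32 ± 0.0700 CPM per kb. The control libraries of Sp1 and Gabpa overlapped, so their order was not resolved. All other neighbors down to Gabpa were separated in both control libraries and in both depletion libraries, with mean levels in the controls that differed by as little as 1.06 times. Separation of 2 libraries per condition takes no account of counting error or of error in the annotated length. The order of members with such close levels was not tested.

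The lowest levels were those of Thap11, a gene of 1 exon, at 2.97 ± 0.465 CPM per kb (SD, n = 2), and of Zfp574, at 2.72 ± 0.740 CPM per kb, and these overlapped in the controls. After depletion Zfp574 lay above Thap11, at 3.28 ± 0.402 against 1.80 ± 0.464 CPM per kb, and the ranks of the other 8 members were as in the controls. The counts cover whole genes, so polymerase paused near the start was not separated from polymerase in the gene body.

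**Figure D1:**
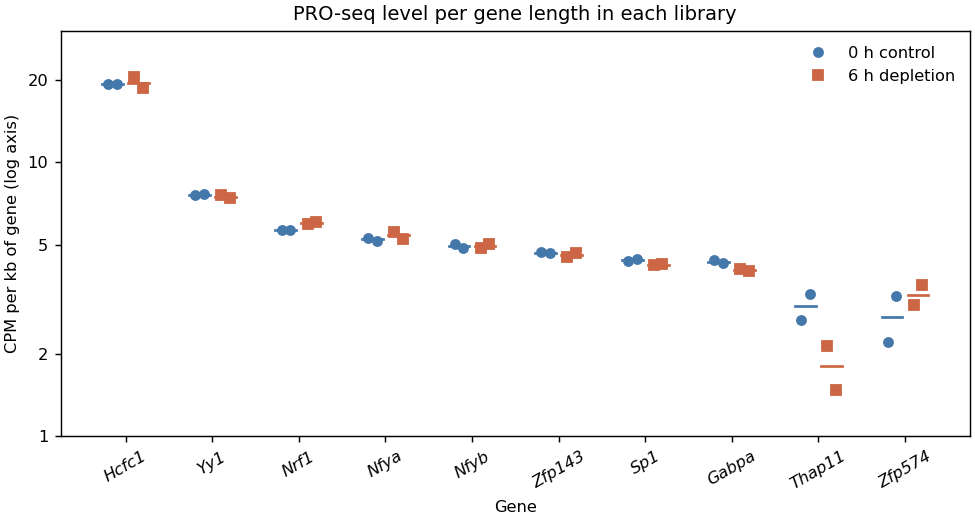
PRO-seq level of each gene, in CPM per kb of annotated gene on a log axis, in the 2 control libraries (circles) and the 2 depletion libraries (squares), with horizontal lines at the means and genes ordered by their control mean. Hcfc1 stands alone near 19 CPM per kb, 7 genes lie between 4 and 8, and the libraries of Thap11 and Zfp574 are the most widely spread.

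Did removal of the Zfp574 protein alter transcription of its own gene or of the other 9 factors? In bulk libraries such as these, fewer cells of a type and less nascent RNA per cell cannot be told apart. At an adjusted p under 0.05 by edgeR quasi-likelihood (Benjamini-Hochberg over 11853 genes), 0 of the 10 members were lower and 0 were higher, whereas 1.4% of all tested genes were lower and 1.11% higher in the same test. At an unadjusted p under 0.05, 1 of the 10 members (Thap11) passed, against 16.2% of all tested genes. DESeq2 called 0 members, and over all genes it called 0.519% lower and 0.119% higher. With a change of at least 2-fold added to the threshold the count of lower members was likewise 0, against 0.321% of all tested genes. A count of 0 among 10 genes does not stand apart from these background shares. The median log2 fold change (depletion over control) of the members was -0.01, beside -0.002 over all tested genes.

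A missed threshold does not show that a gene kept its level, but the 95% intervals give the size of change that these libraries leave room for under a given scaling. Under TMM scaling, the interval of 8 of the 10 members lay within 0.25 of no change on the log2 scale, and over these 8 the bounds of the percent change ran from -15.5% (Gabpa) to 14.8% (Nfya). With size factors recovered from the authors' mean normalized signal, which put most genes lower, 3 intervals (Hcfc1, Nrf1 and Nfya) lay within 0.25, and that of Gabpa ran from -22% to -2.93%. Zfp574 and Thap11, the members with the fewest counts, had the widest intervals. The depletion libraries were both below the lower control in 4 members (Thap11, Yy1, Gabpa and Sp1), in 1 (Nrf1) both lay above, and 5 overlapped. Over all tested genes, 22.9% had both depletion libraries below and 23.4% both above.

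**Figure D2:**
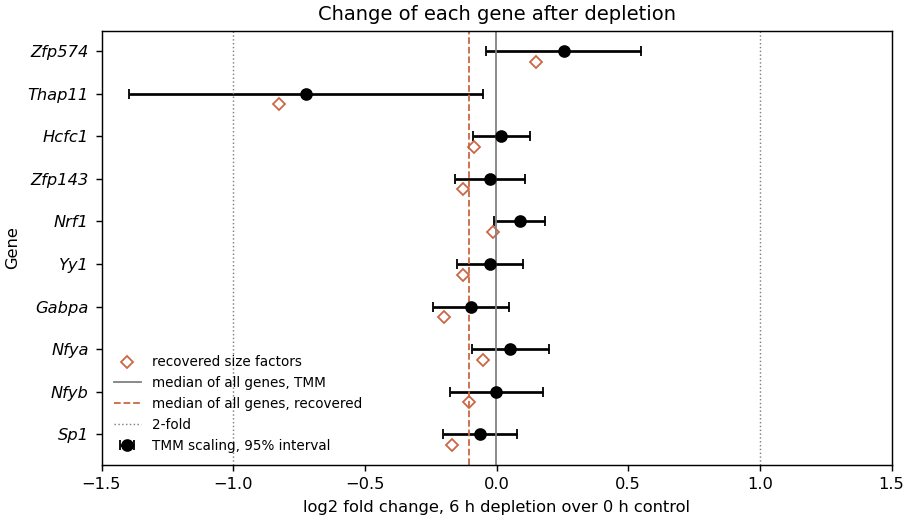
Log2 fold change of each gene (6 h depletion over 0 h control) with its 95% interval under TMM scaling (filled circles), and the value with size factors recovered from the authors' mean normalized signal (open diamonds), beside the median of all tested genes under each scaling. Under TMM, 9 of the 10 intervals include 0; that of Thap11 runs from -1.39 to -0.05.

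Zfp574 (ENSMUSG00000045252, chr7:25072567-25083492, plus strand, mm10) is the target of the degron, which acts on the protein and not on its gene. The inserted cassette is not part of the mouse genome that reads were mapped to, so the values are for the endogenous sequence. Zfp574 stood at 24.04 and 35.5 CPM in the control libraries and at 32.8 and 39.0 CPM after depletion, so the highest value was that of a depletion library but the groups overlapped. These values rested on 80, 130, 195 and 219 counts. Its log2 fold change was 0.25 (SE 0.14), with a 95% interval from -0.04 to 0.55 (adjusted p = 0.406 by edgeR quasi-likelihood), or from -2.82% to 46.4% as a percent change.

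The control libraries of Zfp574 lay far apart for a gene of its depth. Their gap was 0.55 on the log2 scale, and among the 2478 other genes with a mean count within 1.5 times that of Zfp574, 19 genes (0.767%) had a larger gap between the control libraries, while the median gap was 0.14. The exact 95% Poisson intervals of the 2 control values, 19.1 to 29.9 and 29.6 to 42.1 CPM, barely met. The gap between the depletion libraries was 0.25, against a median of 0.10. Without control replicate 2 the log2 fold change was 0.57 and passed the threshold (adjusted p = 0.0293 by edgeR quasi-likelihood), and without control replicate 1 it was 0.01 (adjusted p = 0.987), so that 1 library decided the call. Over all tested genes, 2.29% were called higher and 1.91% lower without control replicate 2. In these fits the remaining library of a condition is assumed to vary like those of the other. Without depletion replicate 1 the value was 0.38 and without depletion replicate 2 it was 0.13.

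Grik5, a kainate receptor subunit gene, has its start on the opposite strand at -221 bp from that of Zfp574, head to head with it. It stood at 53.5 ± 11.5 CPM at 0 h and 56.2 ± 8.71 CPM at 6 h (SD, n = 2 each), a log2 fold change of 0.08 (adjusted p = 0.806 by edgeR quasi-likelihood). Its control counts were 205 and 166, so here control replicate 1 was the higher library, the opposite of Zfp574. The 3 genes whose profile over the 4 libraries was nearest to that of Zfp574 were Gstp2, Bcl7c and A830008E24Rik. Their root mean square differences of centered log2 CPM from Zfp574 were 0.0473, 0.0514 and 0.0554, the smallest among 7413 other genes counted 100 times or more on average. None of the 3 passed the threshold with all 4 libraries. Without control replicate 2, A830008E24Rik was at 0.64, and over the left-out libraries Gstp2 ran from 0.01 to 0.49. The 3 were picked for their match to Zfp574 over these same libraries. Shifts like those of Zfp574 therefore follow from the choice and say nothing further about Zfp574.

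Among the factors tied to Hcfc1, Thap11 (ENSMUSG00000036442, chr8:105855132-105856950, plus strand) showed the largest measured difference of the 10 members. It stood at 4.81 and 6.00 CPM in the controls and at 3.86 and 2.67 CPM after depletion, and both depletion libraries were below both controls. Those values rested on 16, 22, 23 and 15 counts. The Poisson intervals of control replicate 1 (2.75 to 7.81 CPM) and depletion replicate 1 (2.45 to 5.80 CPM) overlapped widely. Those of control replicate 2 (3.76 to 9.09 CPM) and depletion replicate 2 (1.49 to 4.40 CPM) overlapped less. The replicate numbers do not establish pairs, and each control interval overlapped each depletion interval. Thap11 had a log2 fold change of -0.72 (SE 0.33), with a 95% interval from -1.39 to -0.05, the unadjusted p was 0.0361 and the adjusted p was 0.264 by edgeR quasi-likelihood.

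As a percent change the interval of Thap11 ran from -62.0% to -3.43%, and the value did not pass correction over all genes. Leaving out 1 library gave values from -1.02 (without depletion replicate 1) to -0.49 (without depletion replicate 2), and adjusted p-values over all alternatives ran from 0.131 to 0.999. At 1819 bp, Thap11 is shorter than all but 2.5% of the tested genes, and the 476 genes of like length (within 1.5 times) had a median log2 fold change of -0.06. The part of gene length in its value was not tested.

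Hcfc1 (ENSMUSG00000031386, chrX:73942792-73966357, minus strand), counted between 1515 and 2857 times per library, was measured far more closely than Thap11. It stood at 455 and 452 CPM in the controls and at 480 and 439 CPM after depletion, so the depletion libraries lay on either side of both controls. Its log2 fold change was 0.02 (SE 0.05), and the 95% interval of the percent change ran from -6.12% to 9.21% (adjusted p = 0.919 by edgeR quasi-likelihood). Depletion replicate 1 was the highest of the 4 libraries and depletion replicate 2 the lowest.

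Zfp143 (ENSMUSG00000061079, chr7:110061217-110095394, plus strand) was nearly level as well. It stood at 160 and 159 CPM in the controls and at 154 and 159 CPM after depletion. Depletion replicate 2 lay between the 2 controls. Zfp143 had a log2 fold change of -0.03 (SE 0.06), with an interval from -10.4% to 7.65% (adjusted p = 0.899 by edgeR quasi-likelihood).

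Nrf1 (ENSMUSG00000058440, chr6:30047988-30153458, plus strand), the nuclear respiratory factor, was the most deeply counted member, at 1979, 2177, 3742 and 3566 counts in control and depletion libraries in turn. It stood at 595 and 594 CPM in the controls and at 629 and 635 CPM after depletion, so that both depletion libraries were above both controls by more than the spread within either pair. Nrf1 had a log2 fold change of 0.09 (SE 0.05), with an interval from -0.679% to 13.7% (unadjusted p = 0.0761, adjusted p = 0.379 by edgeR quasi-likelihood). Nrf1 spans 105471 bp, longer than 90.2% of the tested genes, and the 1429 genes of like length had a median log2 fold change of 0.08, close to its own value. The part of length was not tested here either.

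Yy1 (ENSMUSG00000021264, chr12:108792973-108820148, plus strand), a zinc-finger factor of both activation and repression, stood at 206 and 208 CPM in the controls and at 205 and 201 CPM after depletion. The groups were separated by a very narrow margin, and the log2 fold change was -0.02 (SE 0.06; interval from -9.81% to 7.13%, adjusted p = 0.895 by edgeR quasi-likelihood).

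Gabpa (ENSMUSG00000008976, chr16:84834925-84863779, plus strand) encodes the DNA-binding subunit of GABP. Its level was 126 and 123 CPM in the controls and 118 and 116 CPM after depletion, with no overlap between the groups. Gabpa had a log2 fold change of -0.10 (SE 0.07), with an interval from -15.5% to 3.31% (adjusted p = 0.535 by edgeR quasi-likelihood). Atp5j, a subunit gene of the mitochondrial ATP synthase, starts 700 bp inside Gabpa on the opposite strand, and the authors counted reads by strand. At 0 h it stood at 15.3 ± 1.19 CPM and at 6 h at 13.3 ± 1.52 CPM (SD, n = 2 each), a log2 fold change of -0.20 (adjusted p = 0.652 by edgeR quasi-likelihood).

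The NF-Y subunits were both close to no change. Nfya (ENSMUSG00000023994, chr17:48386885-48409906, minus strand) stood at 122 and 119 CPM in the controls and at 128 and 121 CPM after depletion, a log2 fold change of 0.05 (SE 0.07; interval from -6.32% to 14.8%, adjusted p = 0.786 by edgeR quasi-likelihood). Nfyb (ENSMUSG00000020248, chr10:82748701-82764144, minus strand) stood at 77.8 and 75.1 CPM in the controls and at 74.9 and 77.8 CPM after depletion, a log2 fold change of -0.001 (SE 0.09; interval from -11.6% to 12.9%, adjusted p = 0.996). In each of them the groups overlapped.

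Oard1, a hydrolase that removes ADP-ribose from proteins, has its start on the opposite strand at -108 bp from that of Nfya, and its measured difference was larger than that of Nfya. Its level was 24.4 ± 0.156 CPM at 0 h and 32.3 ± 1.19 CPM at 6 h (SD, n = 2 each), without overlap. The log2 fold change was 0.40 (SE 0.13), with an unadjusted p of 0.00519 and, by edgeR quasi-likelihood, an adjusted p of 0.107. It did not pass the threshold. The difference between Oard1 and Nfya was not tested.

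Sp1 (ENSMUSG00000001280, chr15:102406143-102436404, plus strand), the founding GC-box factor, stood at 132 and 135 CPM in the controls and at 127 and 128 CPM after depletion. Both depletion libraries were lower by a narrow margin. The log2 fold change was -0.06 (SE 0.07), with an interval from -13.2% to 5.43% (adjusted p = 0.711 by edgeR quasi-likelihood).

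**Figure D3:**
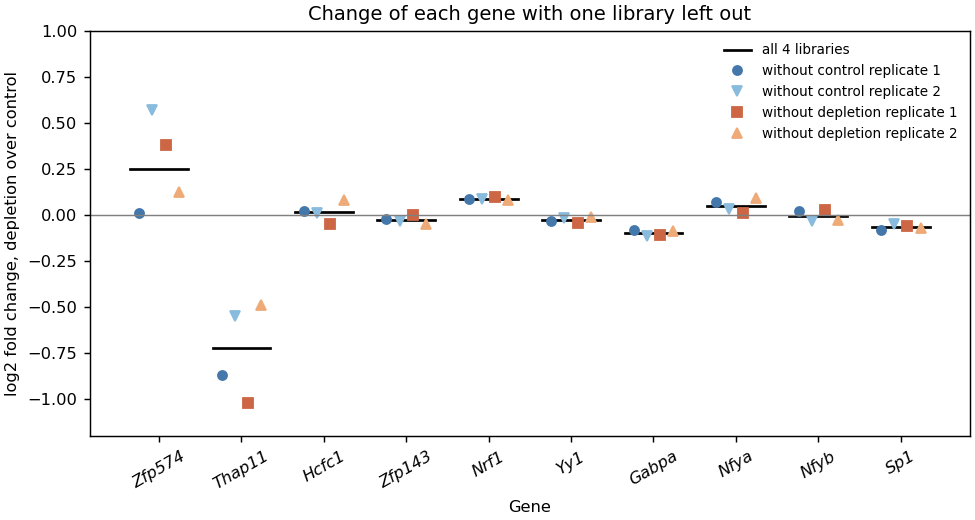
Log2 fold change (depletion over control) of each gene with all 4 libraries (black lines) and with each library left out in turn (symbols). The values of Zfp574 spread from 0.01 to 0.57 and those of Thap11 from -1.02 to -0.49, while those of the other 8 genes stay between -0.12 and 0.10.

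These directions are relative to TMM scaling, which centers most genes on no change. With size factors recovered from the authors' mean normalized signal, the median of all tested genes was -0.11 on the log2 scale, and the members moved down with it: Hcfc1 to -0.09, Nrf1 to -0.02 and Nfya to -0.05, which turned the signs of these 3. A change of size factors shifts all genes by nearly the same amount. Relative to that median, members therefore lay where they did under TMM by construction. Zfp574 was at 0.26, Thap11 at -0.72, Gabpa at -0.10 and Nrf1 at 0.09. The intervals of Thap11, Gabpa and Sp1 lay below 0 under these factors, but none of the 10 passed the adjusted threshold, the smallest adjusted p being that of Gabpa at 0.118 by edgeR quasi-likelihood.

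Further genes of the same promoter class were taken as 3 lists. Of 18 partners and paralogues of the members, 16 were counted and tested. Of these, 0 were lower and 0 higher, against 1.4% and 1.11% of all tested genes, so these counts do not stand apart from the background. At an unadjusted p under 0.05 there were 0 (16.2% of all tested genes), and DESeq2 called 0 as well. Hcfc2 and Zfp76 were not analysed here. Their median log2 fold change was 0.04 and they ranged from -0.39 to 0.23. The 3 of smallest p were Zfp42, a Yy1 relative that marks naive stem cells, at 0.10 (adjusted p = 0.357), Gabpb1, the partner subunit of Gabpa, at 0.12 (adjusted p = 0.390), and Thap12 at 0.23 (adjusted p = 0.496 by edgeR quasi-likelihood). Gabpa and Gabpb1, which form one complex, had values on opposite sides of 0 and neither passed.

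Of 24 Hcfc1 cofactors and subunits of H3K4 methyltransferases, all were tested and 2 fell, against 1.4% of all tested genes. An unadjusted p under 0.05 was found for 6 of the 24, and for 16.2% of all tested genes. The median log2 fold change of the 24 was -0.04, beside -0.002 over all genes. Leaving out control replicate 1 or control replicate 2 brought it to -0.0003 or -0.005. Without depletion replicate 1 it was -0.034, and without depletion replicate 2 it was -0.058. Dpy30, a core subunit of every H3K4 methyltransferase complex of this family, stood at 82.2 ± 2.30 CPM at 0 h and fell to 64.3 ± 4.95 CPM at 6 h (SD, n = 2 each). Its log2 fold change was -0.36 (SE 0.09; adjusted p = 0.0272 by edgeR quasi-likelihood). Wdr82, which ties the Setd1 enzymes to initiating polymerase, fell from 347 ± 4.69 to 301 ± 0.655 CPM, a change of -0.20 on the log2 scale (SE 0.05; adjusted p = 0.0376). In both genes the groups did not overlap, and both falls were under 2-fold.

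The calls of Dpy30 and Wdr82 were close to the threshold. In DESeq2 with its own size factors the adjusted p was 0.804 for Dpy30 and 0.754 for Wdr82, and DESeq2 called 0 of the 24. Wdr82 lost its call without control replicate 2, without depletion replicate 1 and without depletion replicate 2 (adjusted p = 0.0711, 0.285 and 0.330 by edgeR quasi-likelihood), as did Dpy30 (0.0852, 0.301 and 0.0569). Ogt, the O-GlcNAc transferase that also cleaves HCF-1 into its mature form, followed with a log2 fold change of -0.24 (adjusted p = 0.119). It passed with the recovered size factors (-0.34, adjusted p = 0.00633), with the replicate block (-0.24, adjusted p = 0.0273) and without control replicate 2 (-0.32, adjusted p = 0.0207). The recovered factors lower the median of all genes, and with them 6 of the 24 and 5.89% of all tested genes were called lower. With the replicate block, 2.53% of all tested genes were called lower and 3.09% higher.

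Of 39 other factors of CpG-rich promoters (ETS, CREB, E2F, Myc-Max, Usf, Klf and similar proteins), all were tested. Of these, 0 were lower and 0 higher, against 1.4% and 1.11% of all tested genes, and these counts too do not stand apart from the background. An unadjusted p under 0.05 was found for 8, and for 16.2% of all tested genes. DESeq2 with its own size factors called 0 as well. The median log2 fold change of the list was -0.03. The 3 of smallest p were Etv6, an ETS repressor, at 0.15 (adjusted p = 0.137), the zinc-finger gene Klf16 at -0.28 (adjusted p = 0.141) and Crem, a cAMP response factor, at 0.77 (adjusted p = 0.148 by edgeR quasi-likelihood). Crem had the largest value of the list and few counts, with 18 and 16 at 0 h and 56 and 40 at 6 h.

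**Figure D4:**
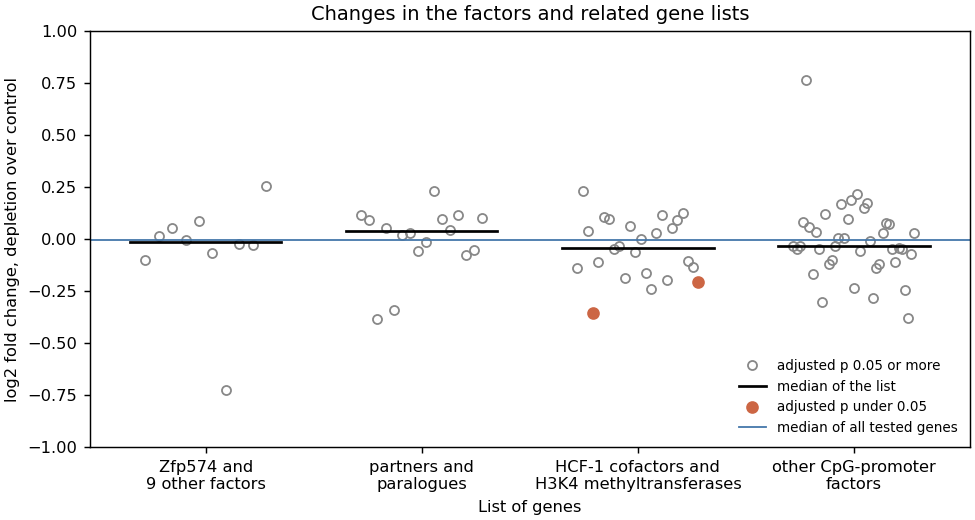
Log2 fold change (depletion over control) of each tested gene in the 4 lists, with genes in alphabetical order within a list, the median of each list (black line) and the median of all tested genes (blue line). The filled points are Dpy30 and Wdr82, the only genes of the 4 lists past the threshold, and Crem at 0.77 and Thap11 at -0.72 lie farthest from 0.

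Finally, the tested genes were grouped by the member sequences in their own promoter windows. Over the 9288 tested genes with a window, the median log2 fold change was -0.005, and 138 genes (1.49%) were lower and 102 higher. The 1791 genes with CCGGAAG, the sequence of Gabpa and other ETS factors, had a median of -0.03, with 41 lower (2.29%) and 11 higher. The 1356 genes with the Nrf1 core had a median of -0.01, with 26 lower (1.92%) and 7 higher, and the 529 with the Yy1 sequence a median of -0.02, with 8 lower (1.51%) and 2 higher. The higher calls made up 0.614% of the ETS group, 0.516% of the Nrf1 group and 0.378% of the Yy1 group, beside 1.1% of all tested genes with a window.

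For CCAAT, held by 3622 genes, the median was -0.01, with 38 lower (1.05%) and 33 higher (0.911%). For the Sp1 sequence, held by 2131, it was 0.01, with 22 lower (1.03%) and 24 higher (1.13%). The Zfp143 core was held by 515 genes with a median of -0.02, 6 of them lower (1.17%) and 7 higher (1.36%). The 74 genes with the core shared by Thap11 and Zfp143 had a median of -0.01, with 0 lower and 1 higher (1.35%). Every one of these medians lay within 0.03 of no change. The groups overlap, since a window can hold several sequences, and no test of the differences between them was made.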

How the data were processed

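PRO-seq counts of 4 libraries of AID-Zfp574 mES cells were used, 2 at 0 h (control) and 2 after 6 h of auxin. The deposited counts are whole numbers that the authors made by trimming reads with cutadapt 1.18, mapping them to mm10 with Bowtie 1.2.2 (unique best alignments), collapsing reads by molecular identifier and counting the nascent 3′ end on its strand over Ensembl genes with CAGE-corrected starts. Uniquely mapped reads undercount near-identical copies. In the authors' table of their own DESeq2 comparison, only the mean normalized signal was used, to recover size factors by regression on the counts (0.699, 0.740, 1.33 and 1.24 in library order; the authors' methods describe 1 spike-in factor per condition). Fold changes, errors, p-values and classes of that table were not used.

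Genes were filtered with filterByExpr (minimum count 10, minimum total 15), which removed 633. The test was the two-sided quasi-likelihood test of edgeR 4.0.16 under R 4.3.3 (functions glmQLFit, glmQLFTest; TMM scaling, condition as the only term) over all genes, with Benjamini-Hochberg adjustment and a threshold of 0.05. CPM uses TMM-adjusted library sizes. Standard errors and 95% intervals of fold changes are those implied by the F statistic. DESeq2 1.42.0 and limma 3.58.1 (voom) served as alternatives, with other scalings, filters, a replicate block and each library left out. Replicates differed by more than sampling noise (chi-square per degree of freedom 1.85 and 1.49). The scripts were tested on simulated data.

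Members and lists were chosen with earlier results of these data known. Named genes were the 10 members, genes past the threshold in the further lists or the 3 of smallest p, genes with an opposite-strand start within 1 kb of a member's (AA474408 at Zfp143 and Gm34220 at Yy1 were not analysed here), and the 3 profiles nearest Zfp574 on log2(CPM + 0.5). Positions came from GENCODE M21 (12474 of 12486 genes matched), which lacks the corrected starts, and promoter sequences from RefSeq GRCm38.p6 (9717 genes matched by symbol), 1 window per gene nearest the GENCODE start. Longer forms of the Thap11, Zfp143 and Nrf1 sequences were also searched, and their cores were chosen after the data were seen.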

Additional observations from a re-analysis of the deposited data

How the results depend on the processing

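Over 10 members and 14 settings other than the 2-fold threshold (Thap11 was not tested at a mean count of at least 100), 126 of 139 values had the direction given in the report, and 1 passed the threshold: Zfp574 without control replicate 2, at 0.574. Leaving out 1 library gave 0 to 1 members called higher and 0 lower, Zfp574 values from 0.0126 to 0.574 and medians of the members from -0.0227 to -0.0043. The replicate numbers of the labels do not establish pairs (correlation of replicate deviations between conditions 0.106). With the replicate block, Zfp574 was at 0.268, 0 members were called, and 1 of the other CpG-promoter factors was called higher (Etv6, 0.149), while the Hcfc1 cofactor list had 3 lower instead of 2, against 2.53% lower and 3.09% higher over all genes.

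The 13 values that turned sign were all small and uncalled. Over left-out libraries Hcfc1 ranged from -0.0463 to 0.0815, Zfp143 from -0.0493 to 0.000795, Nfyb from -0.0284 to 0.0281, Grik5 from -0.130 to 0.313 and Bcl7c from -0.0737 to 0.478. Hcfc1 was at -0.0158 with library totals, -0.0850 with the recovered size factors and -0.0851 with these in DESeq2, and it turned negative without depletion replicate 1. Nrf1 was at -0.0151 with the recovered factors in either tool, and Nfya at -0.0511 in edgeR and -0.0513 in DESeq2. Nfyb was at 0.000952 in DESeq2, 0.00231 without the count filter and 0.0241 without control replicate 1, and both Nfyb and Zfp143 turned positive without depletion replicate 1. Outside the members, Zfp42 turned to -0.00154 and -0.00147 and Grik5 to -0.0199 and -0.0249 with the recovered factors in edgeR and DESeq2. Grik5 was also negative when control replicate 2 or depletion replicate 1 (-0.0858) was left out, and Bcl7c when control replicate 1 was. The median of the members moved to -0.0469 with library totals and to -0.116 with the recovered factors in either tool, by the construction of these scalings, which put the median of all genes at -0.0359, -0.105 and -0.109. With the recovered factors, the Hcfc1 cofactor list had 6 of 24 genes lower and the other factors 2 of 39, against 5.89% of all tested genes. The cofactor list had 1 lower with these factors in DESeq2. It had 0 lower in DESeq2 alone (0.519% of all genes) and 0 at 2-fold (0.321%). Medians of genes with the longer Thap11 and Zfp143, Zfp143 and Nrf1 sequences were 0.0022, -0.0111 and -0.0205. For the tests and the left-out libraries the cause was not tested. Thap11 and Zfp574 had the fewest counts and the widest intervals. The SE of Thap11 was 0.328, against a median of 0.329 in genes of like depth. That of Zfp574 was 0.144, against a median of 0.124.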
